A study of Sus scrofa with 48 samples.

Results

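The genes examined here encode 10 enzymes that break down amino acids or move their nitrogen, measured in pig longissimus muscle, the long muscle of the back. They were UROC1, which degrades urocanate in the breakdown of histidine, the branched-chain group of BCAT2, BCKDHA, BCKDHB, IVD and ALDH6A1, and the nitrogen-transfer group of GLUL, GOT1, GOT2 and GPT2. Array probes were taken as theirs when the gene name on the array, or a symbol in round brackets in the probe's description, was one of these 10 symbols. This gave 39 of the 60305 probes on the array that were not controls, and 37 of them were kept for a signal that 12 or more of the 48 arrays showed well above background, a condition met by 42125 probes in all. The 10 genes belong to 8855 known gene symbols found among the kept probes. UROC1 was chosen by its measured difference between the pig lines, from earlier results on these arrays, so that its line difference is described here without a test. The other 9 were chosen by function, with those results known.

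The 48 pigs were barrows (castrated males) of the Large White breed, from a low RFI line (RFIneg) and a high RFI line (RFIpl). RFI, or residual feed intake, is the feed an animal eats beyond what its growth and maintenance need, and a pig with low RFI is an efficient one. Pigs of both lines ate ad libitum either a diet high in fat and fiber (HF) or a diet low in fat and fiber (LF), which made 4 groups of 12. The ages were not given in the sources used here, and each line is a single selection line, so that selection and any other difference between the lines cannot be told apart. Levels are the log2 of the background-subtracted spot signal minus the mean over the kept probes of the same array, so that 0 is the array mean. Levels of different probes were not set against each other, since each probe has its own brightness.

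Histidine is degraded in steps, in which HAL forms urocanate, UROC1 hydrates it, AMDHD1 opens the ring and FTCD passes the last carbon to folate. These steps are best known from liver, and the HAL step also from skin. The branched-chain amino acids leucine, isoleucine and valine are instead largely started in muscle. BCAT2 removes their amino group in mitochondria, the branched-chain keto acid dehydrogenase with its subunits BCKDHA and BCKDHB commits the carbon skeletons to oxidation, IVD acts later in leucine breakdown and ALDH6A1 late in valine breakdown. GOT1 and GOT2 are the cytosolic and mitochondrial aspartate aminotransferases, GPT2 is the mitochondrial alanine aminotransferase, and GLUL makes glutamine, the form in which muscle exports much of its nitrogen.

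The probes of UROC1 are shown because they did not give the same picture. They are oligonucleotides of 60 bases, printed 5′ to 3′ as on the array, the first and second by their last 30 bases.
A_72_P316243: aagctgtaataaaaatggacagataaaaaa
A_72_P030216: attaggagtgaccactggcctagttctagc
A_72_P395028: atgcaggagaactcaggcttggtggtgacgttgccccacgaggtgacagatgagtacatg
O9852: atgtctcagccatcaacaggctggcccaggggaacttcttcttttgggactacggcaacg
The fifth probe, A_72_P002516, carries the same 60 bases as O9852. It was well above background on 3 of the 48 arrays and was not kept, whereas O9852 was well above background on 26. Their median processed signals were 12.2 and 17.4 intensity units.

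UROC1 was higher in high RFI pigs than in low RFI pigs at 3 of its 4 kept probes. At A_72_P316243, its brightest probe, the level of the 24 low RFI pigs ran from -4.79 to 1.68 with a median of 0.10, and that of the 24 high RFI pigs from -0.62 to 3.0 with a median of 1.61. The difference in means was 1.84 (SE 0.39) on the log2 scale, or 3.59-fold. The lines overlapped, but 22 of the 24 high RFI pigs lay above the median of the low RFI line, and 6 low RFI pigs lay below every high RFI pig.

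Within the diets, low RFI pigs on the LF diet ran from -4.79 over a median of 0.05 to 1.67, and high RFI pigs on the LF diet from -0.62 over 1.84 to 2.89. On the HF diet, low RFI pigs ran from -3.59 over a median of 0.24 to 1.68, and high RFI pigs from 0.11 over 1.54 to 3.0. The line difference was thus present on both diets, with means 1.98 apart on LF and 1.70 apart on HF. The change of the line difference with diet was -0.28, with a 95% interval from -1.87 to 1.31 and an adjusted p of 0.999 in limma, so that a change of 1 in either direction was within the interval. The diet difference, HF minus LF over both lines, was 0.27, with an interval from -0.53 to 1.06 and an adjusted p of 0.856.

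A few low RFI pigs lay far below the rest. The 4 lowest low RFI pigs stood apart at A_72_P316243, with levels of -4.79, -3.35 and -2.90 on the LF diet and -3.59 on the HF diet, while the next low RFI pig was at -1.06. They lay on 3 different slides. The difference between the medians of the lines, on which these pigs weigh less, was 1.51. In low RFI pigs the SD was 1.75, and in high RFI pigs it was 0.88. At this probe 22 low RFI and 24 high RFI pigs were well above background.

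A_72_P030216 followed the first probe closely, with r = 0.98 over the 48 pigs, 0.96 within the low RFI line and 0.99 within the high RFI line. Its level ran from -5.90 to 1.10 (median -0.41) in the low RFI line and from -0.98 to 2.24 (median 1.01) in the high RFI line, and the means differed by 2.0 (SE 0.44). The same 4 pigs were the lowest, and at this probe none of the 4 was well above background. The lines overlapped here also, with 9 high RFI pigs above every low RFI pig and 10 low RFI pigs below every high RFI pig.

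A_72_P395028 was well above background on all 48 arrays. Low RFI pigs ran from -3.73 to -1.78 (median -2.75) and high RFI pigs from -3.01 to -1.19 (median -2.35), with means 0.62 apart (SE 0.13). The difference was smaller than at the first probe on the log2 scale, but measured in SDs within groups it was 1.40, against 1.31 at A_72_P316243. Only 2 of the 4 low RFI pigs lowest at A_72_P316243 were among the 4 lowest here, and r between both probes was 0.66 over all pigs, 0.46 in low RFI and 0.65 in high RFI pigs. O9852 differed by 0.10 (SE 0.16), with levels from -5.98 to -2.89 in low RFI and from -5.04 to -3.02 in high RFI pigs. This probe was well above background in 13 pigs of each line, and its r with A_72_P316243 was 0.12. With normexp correction of the background the line difference was 1.33 at A_72_P030216, 0.28 at A_72_P395028 and -0.03 at O9852.

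**Figure D1:**
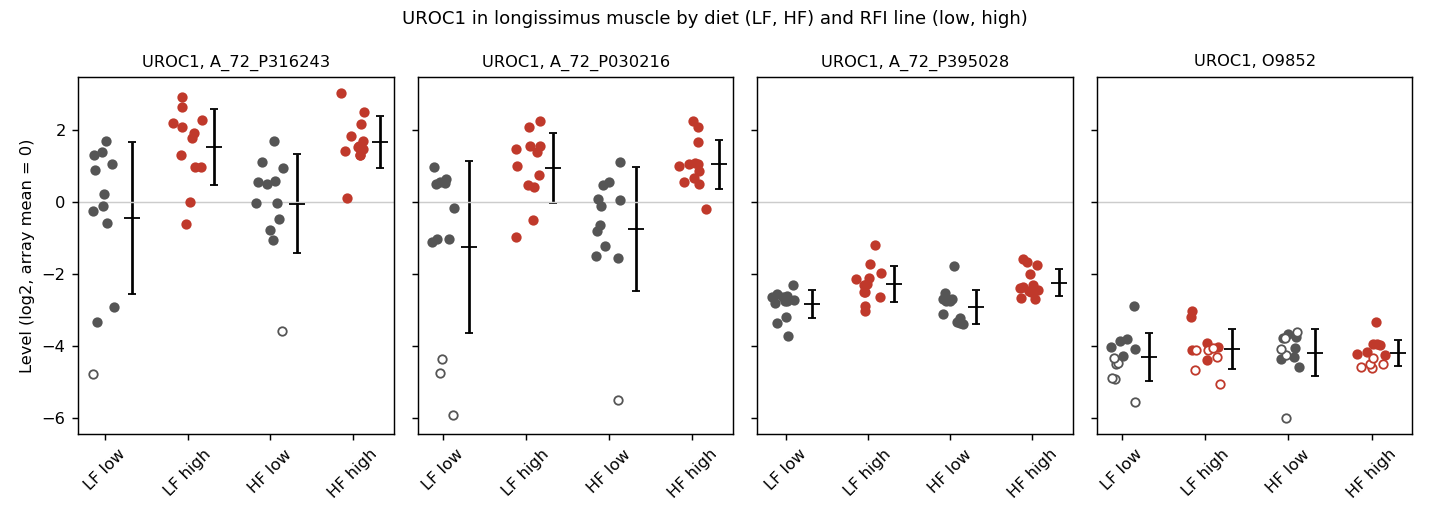
Levels of UROC1 at its 4 kept probes (vertical axis, log2 with the array mean at 0) by diet and RFI line (horizontal axis). Each point is 1 pig, open points were not well above background, grey is low RFI, red is high RFI, and bars are the mean ± SD of 12 pigs. The 4 lowest pigs at both bright probes are low RFI pigs, and at O9852 the lines lie at the same height.

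Each of the 6 slides held 2 arrays of every group. Within slides the line difference at A_72_P316243 ran from 0.42 to 3.47 and was above 0 on all 6. At A_72_P030216 it ran from 0.31 to 4.41 and at A_72_P395028 from 0.11 to 0.85, again above 0 on all 6 slides, while at O9852 it was above 0 on 3. On the 2 scan days it was 1.01 and 2.68 at A_72_P316243. UROC1 was chosen by its line difference on these same arrays, so values by slide or day describe it and are no separate evidence.

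At its 2 bright probes UROC1 also varied more among pigs of one group than the other members. Its SD within groups was 1.41 at A_72_P316243, which was larger than that of 99.4% of the kept probes, where the median SD was 0.26, and 1.58 at A_72_P030216. It was 0.44 at A_72_P395028 and 0.57 at O9852. Among the brightest probes of the other 9 genes it ran from 0.15 for BCKDHA to 0.60 for GPT2. The SDs of UROC1 at its 2 bright probes include spots not well above background. Of the 24 low RFI pigs, 22 were well above it at A_72_P316243 and 20 at A_72_P030216.

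The other steps of histidine breakdown gave no call. HAL, the enzyme before UROC1, was at 2.22 ± 0.17 in low RFI and 2.15 ± 0.13 in high RFI pigs (SD, n = 24 each), a difference of -0.07 with an adjusted p of 0.268. FTCD, at the end of the pathway, was at -3.14 ± 0.49 and -3.28 ± 0.39, a difference of -0.14 with an adjusted p of 0.482. No probe of AMDHD1 or of HDC, which makes histamine from histidine, was kept. At all 3 kept probes of these genes the estimate was below 0, as it was at 24535 of the 42125 kept probes. Limma called 0 of the 3, against 16.4% of all kept probes. An unadjusted p under 0.05 was found at 0 of the 3, against 13071 of the 42125 kept probes.

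Because UROC1 is foremost a liver gene, markers of hepatocytes were set beside it. Of 10 hepatocyte genes with a kept probe, 0 were called for the line in limma, against 16.4% of all kept probes. The variance analysis with line alone also called 0 of the 10. In limma 2 had an unadjusted p under 0.05, against 13071 of all 42125 kept probes. The mean level of the 10 genes ran from -1.89 to 1.97 in low RFI pigs and from -2.01 to 1.5 in high RFI pigs, with means of -0.77 ± 0.91 and -0.64 ± 0.87 (SD, n = 24 each). ALB, the most abundant plasma protein of liver, differed by -0.02 (SE 0.49). The 2 with an unadjusted p under 0.05 were HP, with 0.62 (SE 0.28), and APOA2, with -0.14 (SE 0.06). Also above 0 were FGG (0.58), FGB (0.39), TTR (0.12) and TF (0.04). Also below 0 were APOA1 (-0.16), APOC3 (-0.14) and SERPINC1 (-0.02). FGB, FGG and TTR were well above background on only 15, 28 and 30 of 48 arrays. The tissue label was borne out by the 11 skeletal muscle genes, all well above background on every array, with a mean level from 9.07 to 9.50 in low RFI and from 8.91 to 9.38 in high RFI pigs. Among them MYH2, TNNI2 and ENO3 were called lower in high RFI pigs, by -0.12, -0.15 and -0.16, while 9.85% of all kept probes were called lower. No muscle marker was called after quantile normalization.

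Of 67 marker genes with a kept probe, over all lists, 12 were called for the line, 7 higher and 5 lower in high RFI pigs, against 16.4% of all kept probes. After quantile normalization 9 were called higher and 0 lower, and without the filter on dim probes 4 higher and 0 lower. Of 6 immune genes, 2 were called higher in high RFI pigs, LYZ by 1.5 (SE 0.41) and CD14 by 0.30 (SE 0.08). Not called were CD163 with 0.52, CD68 with 0.40, PTPRC with -0.03 and CD3E with -0.14. The mean level of the immune list ran from -1.14 to 0.02 in low RFI and from -0.84 to 1.30 in high RFI pigs. Of 6 fibroblast genes, COL1A1 and COL1A2 were called higher, by 0.37 and 0.32. Not called were COL3A1 with 0.24, PDGFRA with 0.09, LUM with -0.02 and DCN with -0.06. The mean level of the fibroblast list ran from 3.41 to 4.35 in low RFI and from 3.55 to 4.42 in high RFI pigs. Of the remaining lists, 1 of 7 adipocyte genes (FABP4), 1 of 5 endothelial genes (TEK) and 1 of 8 slow fiber genes (CASQ2) were called higher, 2 of 12 mitochondrial genes (SDHB and UQCRC1) were called lower, and 0 of 2 blood genes were called. The part of these cell types in the UROC1 difference was not tested. In a whole muscle sample, more cells of a type and more RNA per cell cannot be told apart.

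The genes whose levels were most like UROC1 were sought over the 48 pigs, after the mean of each line and diet group had been removed from both, among 8839 symbols. The 5 highest were ZXDC with r = 0.62, CLIC5 with r = 0.58, FAM103A1 with r = 0.56, PMAIP1 with r = 0.53 and NCALD with r = 0.53. These correlations share the same 48 arrays and the same pigs far below the rest. The other 2 probes of ZXDC had r of -0.11 and 0.11, the other 4 of CLIC5 from 0.10 to 0.55, the other probe of PMAIP1 0.49 and that of NCALD 0.41, while FAM103A1 had 1 probe. In limma CLIC5 was called higher in high RFI pigs by 0.89 (SE 0.21, adjusted p = 0.00344) and FAM103A1 by 0.75 (SE 0.12, adjusted p = 2.34e-05). Not called were ZXDC with 0.03 (SE 0.05, adjusted p = 0.707), PMAIP1 with 0.54 (SE 0.33, adjusted p = 0.258) and NCALD with -0.03 (SE 0.06, adjusted p = 0.747). Of all kept probes 16.4% were called for the line.

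ZXDC is also the next protein-coding gene after UROC1 in RefSeq's order of genes (assembly Sscrofa11.1), so the 5 protein-coding genes on each side were examined, a look that was added after the values were known. Of these 10 neighbours, 9 had kept probes. Of their 19 probes, 0 were called for the line in limma or in the variance analysis, against 16.4% of all kept probes called in limma. In limma 2 of the 19 had an unadjusted p under 0.05, against 13071 of all 42125 kept probes. The line differences of the 19 probes lay between -0.21, at SLC41A3, and 0.19, at RCCD1, and the lowest adjusted p was 0.129. Their r with UROC1 ran from -0.39 to 0.62, and the highest after that of ZXDC was 0.23, at SLC41A3.

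**Figure D2:**
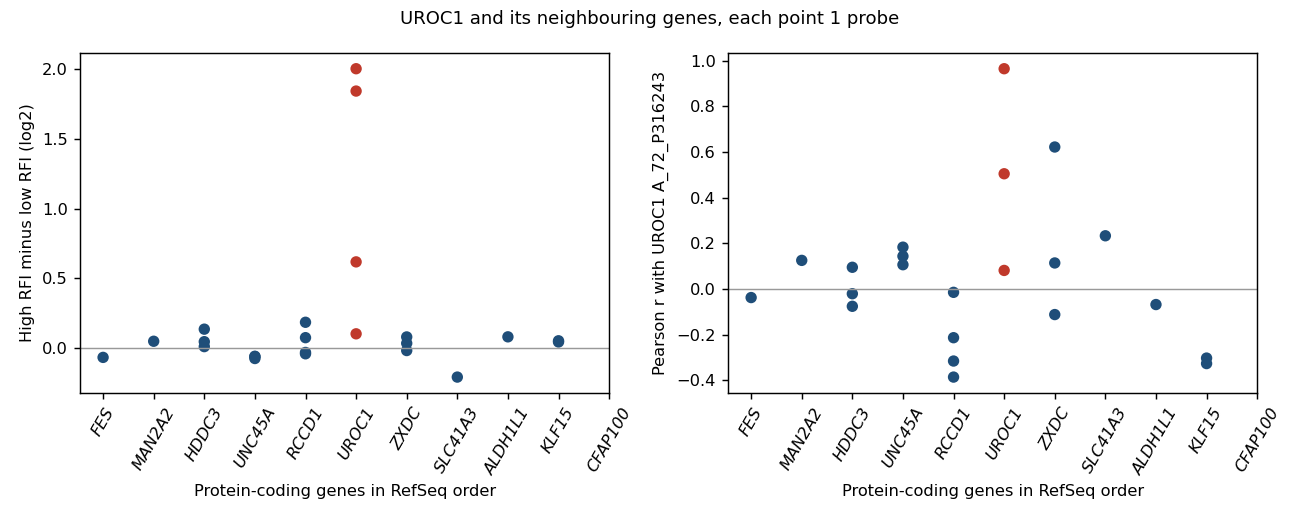
UROC1 (red) and the 5 protein-coding genes on each side of it in the RefSeq order (blue, horizontal axis), each point 1 kept probe, with the line difference on the log2 scale on the left and Pearson's r with A_72_P316243 on the right, over 48 pigs with group means removed. UROC1 reaches 2.0 on the left while its neighbours stay between -0.21 and 0.19, and on the right 1 ZXDC probe stands at 0.62; CFAP100 has no point.

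The other 9 genes did not follow UROC1. Of their 33 kept probes, limma called 0 for the line, while 16.4% of all kept probes were called, 2768 higher and 4151 lower in high RFI pigs. Before adjustment 5 of the 33 had a p under 0.05 in limma, against 13071 of all 42125 kept probes. The variance analysis with line alone also called 0 of the 33. The median size of their line difference, whatever its sign, was 0.09, near the 0.10 of all kept probes. The estimate was below 0 at 24 and above 0 at 9 of the 33 probes, and below 0 at 24535 of all 42125 kept probes. The median was -0.06, against -0.03 for all kept probes.

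BCAT2, the aminotransferase of the branched-chain amino acids, ran from 4.52 to 5.29 (median 4.90) in the low RFI line and from 4.06 to 5.53 (median 4.91) in the high RFI line at its brightest probe. The lines overlapped over nearly their whole range, and the difference was -0.05, with a 95% interval from -0.20 to 0.11. BCKDHA, the alpha subunit of the dehydrogenase, was at 1.51 ± 0.10 in low RFI pigs on LF, 1.53 ± 0.14 in low RFI pigs on HF, 1.47 ± 0.17 in high RFI pigs on LF and 1.5 ± 0.17 in high RFI pigs on HF (SD, n = 12 each). Its line difference was -0.04, from -0.13 to 0.05.

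BCKDHB, the beta subunit, gave estimates below 0 at each of its 5 probes. At its brightest probe the low RFI pigs ran from 2.59 to 3.33 (median 2.90) and the high RFI pigs from 2.19 to 3.15 (median 2.84). The difference was -0.13, with an interval from -0.26 to -0.0045, but an adjusted p of 0.146. At this probe and at A_72_P635404 it was below 0 on all 6 slides. At A_72_P441239 and O11931 it was below 0 on 5, and at A_72_P676234 on 4. Over the 5 BCKDHB probes the difference ran from -0.13 to -0.06. These probes are not 5 separate measurements. The brightest and A_72_P635404 share 55 of their 60 bases, in capitals here, and their levels had r = 0.93.
A_72_P693282: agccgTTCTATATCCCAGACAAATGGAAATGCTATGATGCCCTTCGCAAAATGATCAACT
A_72_P635404: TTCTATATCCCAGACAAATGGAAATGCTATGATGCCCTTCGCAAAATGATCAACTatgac
BCKDHA likewise has a pair of probes with 60 identical bases, whose line differences were 0.05 and 0.03 and whose levels differed from each other with an SD of 0.12, which is a measure of the error between spots.

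IVD, isovaleryl-CoA dehydrogenase, gave the only call among the 33 probes, and on the HF diet alone. At A_72_P715033 the HF pigs of the low RFI line ran from -1.83 over a median of -1.21 to -1.03, and those of the high RFI line from -2.64 over -1.82 to -1.19, so that the groups overlapped. The difference was -0.54 with an adjusted p of 0.0372, against 6.39% of all kept probes called on HF. On the LF diet it was 0.01 with an adjusted p of 0.990. The difference between the diets had an unadjusted p of 0.0212 and an adjusted p of 0.999, so a dependence on diet was not shown. The call did not hold without the array with the highest median signal, a high RFI pig on HF (-0.50, adjusted p = 0.0579), or without the filter on dim probes (-0.55, adjusted p = 0.0900). With normexp correction of the background the difference was -0.33 (adjusted p = 0.0467). At the brightest IVD probe the HF difference was -0.39 (adjusted p = 0.105), and at A_72_P713413 it was 0.01. On LF, 0 of the 33 probes were called, against 2.47% of all kept probes. An unadjusted p under 0.05 on LF was found at 0 of the 33, against 6940 of all 42125 kept probes.

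ALDH6A1, which oxidises methylmalonate semialdehyde from valine, ran from -1.37 to -0.64 (median -1.13) in the low RFI line and from -1.98 to -0.74 (median -1.08) in the high RFI line. The difference was -0.04, from -0.18 to 0.11.

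In the nitrogen-transfer group, GPT2 had the largest estimate and the widest interval. Its kept probe ran from -4.42 to -1.36 (median -3.16) in the low RFI line and from -5.01 to -1.70 (median -3.46) in the high RFI line, and was well above background on 42 of 48 arrays. The difference was -0.34, from -0.68 to -0.0046, with an adjusted p of 0.155. It was -0.15 with normexp correction of the background and -0.19 in the deposited log2 table. Its other probe, O4213, was well above background on 0 of 48 arrays. GOT1 pointed the other way, with 0.10 at its brightest probe (interval -0.08 to 0.28, adjusted p = 0.470). Its low RFI pigs ran from 4.22 to 5.63 (median 4.94) and its high RFI pigs from 4.36 to 5.53 (median 5.04). On HF the 5 GOT1 probes differed by 0.23 to 0.39 and on LF by -0.04 to 0.03, none of them called.

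GOT2, the mitochondrial partner of GOT1, ran from 6.33 to 7.10 (median 6.75) in the low RFI line and from 6.23 to 6.95 (median 6.72) in the high RFI line. The difference at this brightest probe was -0.09, from -0.21 to 0.03, and it lay below 0 on all 6 slides. After quantile normalization it was -0.03. At A_72_P024076 and A_72_P441134 the difference was -0.05 and -0.07, and lay below 0 on 4 and 5 slides. GLUL, glutamine synthetase, ran from 5.25 to 6.32 (median 5.71) and from 5.13 to 6.22 (median 5.70), with a difference of -0.03 and an interval from -0.18 to 0.13. Its estimate turned to 0.02 after quantile normalization. Of its 7 probes, A_72_P221182 had the largest difference, -0.20 with an adjusted p of 0.150.

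**Figure D3:**
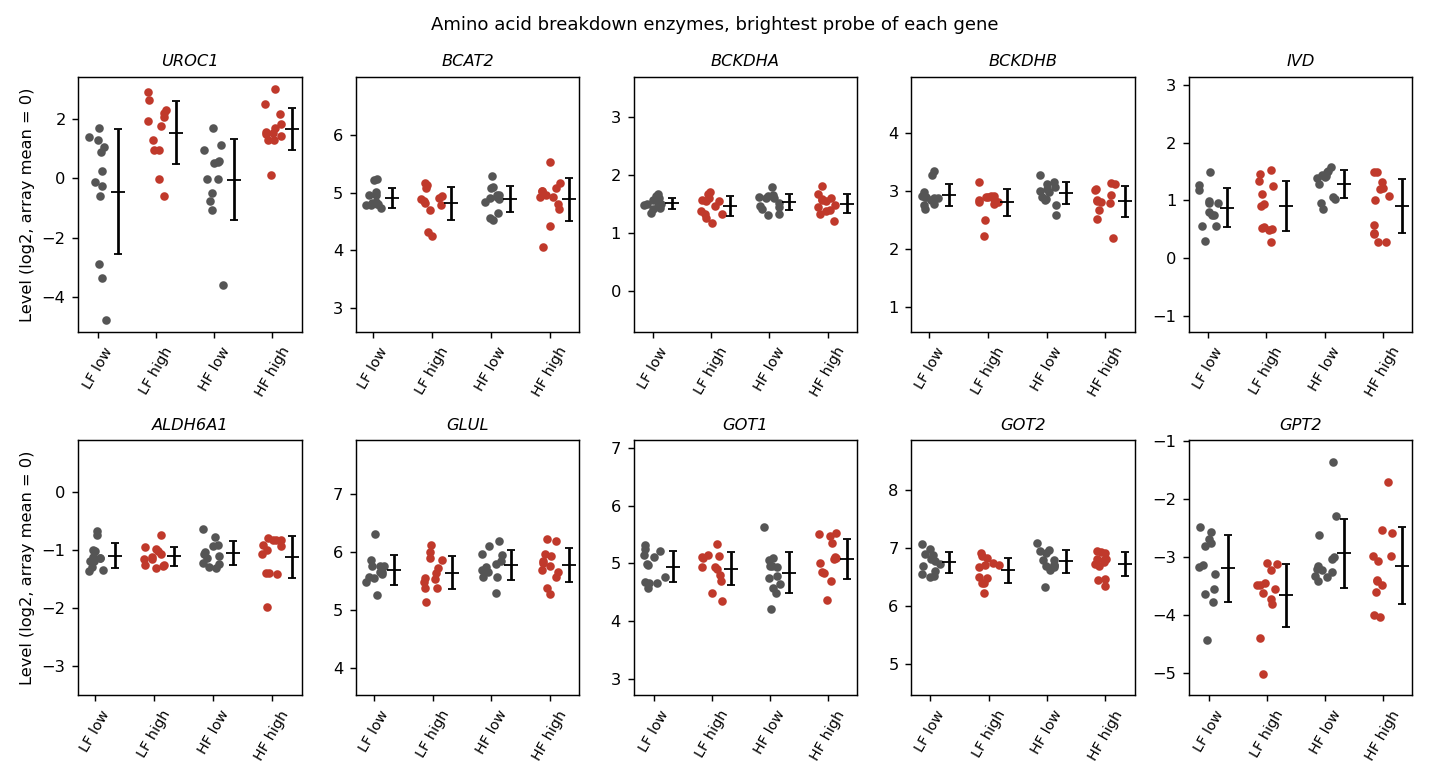
Level (vertical axis, log2 with the array mean at 0) of the brightest probe of each of the 10 genes by diet and line (horizontal axis), each point 1 pig, grey low RFI and red high RFI, with mean ± SD of 12 pigs. UROC1 has its own, wider axis, and the other 9 panels share one span; UROC1 is the one whose line medians stand 1.51 apart.

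**Figure D4:**
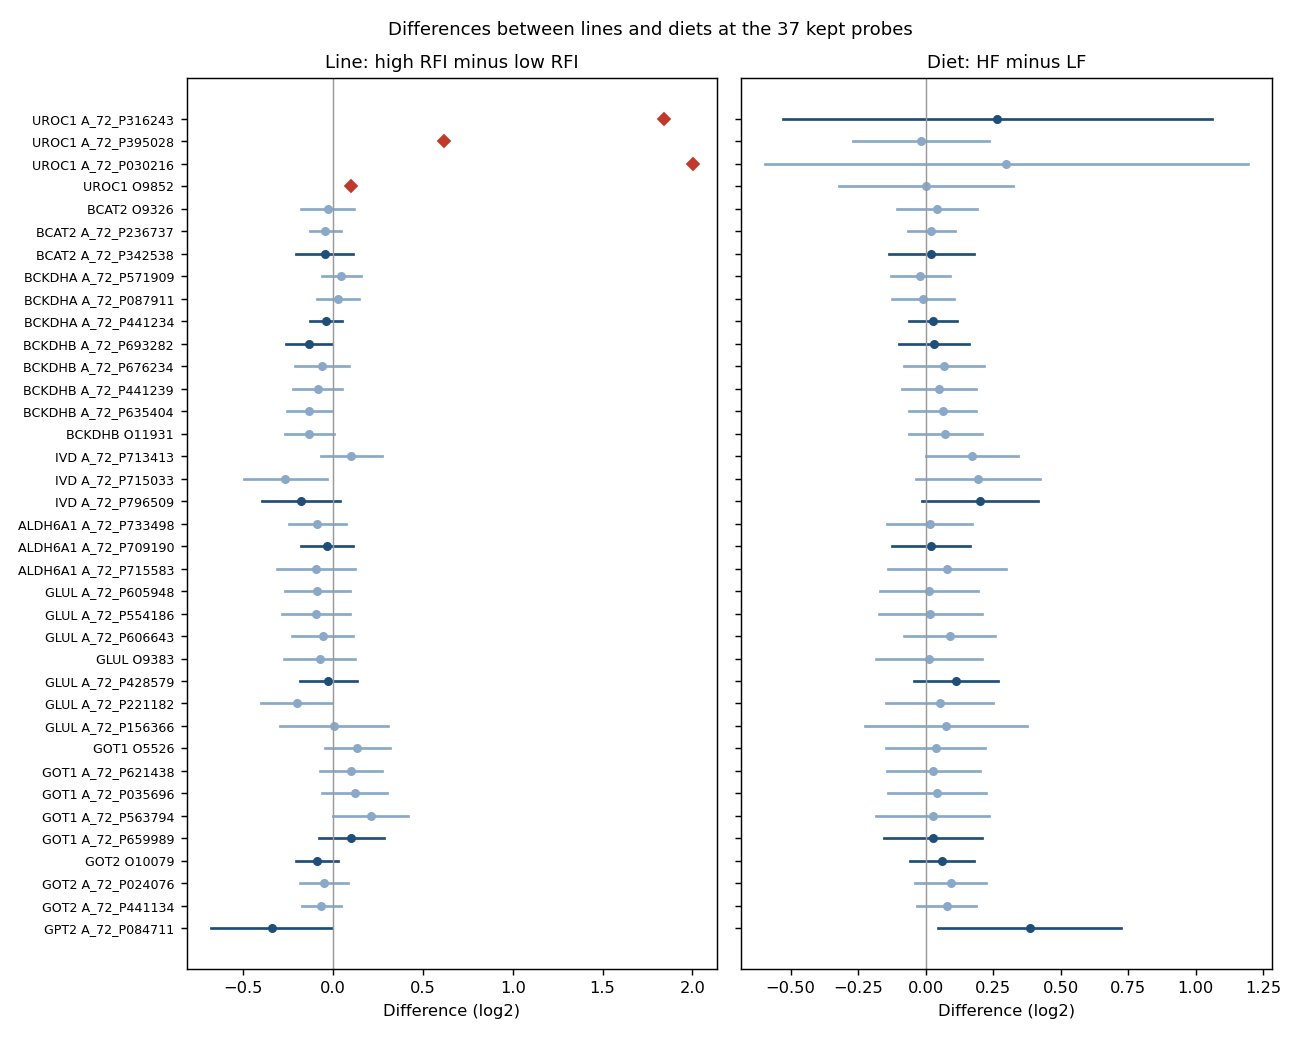
Differences on the log2 scale (horizontal axes) at the 37 kept probes (vertical axis), high minus low RFI on the left and HF minus LF on the right. Lines are 95% intervals, dark for the brightest probe of a gene; UROC1 is drawn on the left as diamonds without an interval, from 0.10 to 2.0.

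Diet moved none of the 10 genes past the threshold. Of their 37 kept probes limma called 0 for diet, against 0.42% of all kept probes. An unadjusted p under 0.05 was found at 2 of the 37, against 5513 of all 42125 kept probes. The estimates for HF minus LF were above 0 at 34 of the 37 probes, and at 21409 of all 42125 kept probes. Their median was 0.04, against 0.00 for all kept probes. Several probes of the same gene share bases, so the 37 are not separate measurements. The largest was GPT2 with 0.39, an interval from 0.05 to 0.72 and an adjusted p of 0.299. It was 0.15 with normexp correction of the background and 0.22 in the deposited log2 table. After GPT2 came UROC1 with 0.27 (adjusted p = 0.856), IVD with 0.20 (adjusted p = 0.431) and GLUL with 0.11 (adjusted p = 0.584) at their brightest probes. The line by diet term also gave 0 calls among 37 probes, and 0% of all kept probes were called. Of the 37, 1 had an unadjusted p under 0.05, the IVD probe A_72_P715033, against 1875 of all 42125 kept probes.

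Among pigs, with group means removed, UROC1 had low correlations with the other members. Its r with the 9 others ran from -0.17 to 0.04, while the 36 pairs without UROC1 ran from -0.32 to 0.59 with a median of 0.14. The highest pairs were GLUL with GOT2 (r = 0.59), BCKDHA with GOT2 (r = 0.56) and GOT1 with GOT2 (r = 0.54). GOT1 and GOT2 also varied with the mean of 12 mitochondrial marker genes, with r of 0.75 and 0.71, and UROC1 had r = -0.14 with it. These values describe 48 pigs measured on the same arrays.

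The wider set of amino acid breakdown held 73 further genes, of which 51 had kept probes, 133 in all. For the line, 15 of the 133 probes were called, 9 higher and 6 lower in high RFI pigs, against 16.4% of all kept probes. At the brightest probe of each of the 51 genes, 1 was called higher and 4 lower. Of all kept probes 6.57% were called higher and 9.85% lower. GATM, which makes the precursor of creatine from arginine and glycine, was higher, at -2.43 ± 0.42 in low RFI and -1.98 ± 0.43 in high RFI pigs (SD, n = 24 each), a difference of 0.45 with an adjusted p of 0.00954. It was 0.21 with normexp correction of the background and 0.29 in the deposited log2 table, called in both. All 8 GATM probes had estimates above 0, from 0.07 to 0.95, and 6 were called.

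ADSL, an enzyme of the purine nucleotide cycle that frees ammonia from aspartate in muscle, was lower in high RFI pigs. It was at 4.11 ± 0.29 in low RFI and 3.72 ± 0.26 in high RFI pigs, a difference of -0.39 with an adjusted p of 0.000587, and its second probe was also called, at -0.26. GCDH, of lysine and tryptophan breakdown, was lower by -0.24 (adjusted p = 0.0107). GSTZ1, of tyrosine breakdown, was lower by -0.16 (adjusted p = 0.00852), and 1 of its 3 probes was called. HSD17B10, of isoleucine breakdown, was lower by -0.15 (adjusted p = 0.0276), but was not called with normexp correction of the background, with dim probes included or in the deposited log2 table.

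Of the genes of the wider set without a call, 5 are named by the rule for named genes, MUT with a line difference of -0.06, AMPD1 with -0.10, ADSSL1 with -0.08, ACADSB with 0.09 and DLD with 0.09. By group of the wider set, the branched-chain list had 4 of 49 probes called, 3 higher at ACAD8 and AUH and 1 lower at HSD17B10. ACAD8 was called at 1 of 2 probes and AUH at 2 of 4, neither at its brightest. The line differences ran from -0.03 to 0.23 over the ACAD8 probes and from -0.13 to 0.17 over those of AUH. The list around glutamate, alanine, aspartate and proline had 3 of 41 called, all lower, at ADSL and ADSS. The serine, glycine, threonine and sulfur list had 6 of 23 called, all of them GATM probes. The lysine, tryptophan, phenylalanine and tyrosine list had 2 of 10 called and the urea cycle 0 of 7, with 1 at an unadjusted p under 0.05. For diet, 0 of the 133 probes were called in limma, against 0.42% of all kept probes. An unadjusted p under 0.05 for diet was found at 14 of the 133, against 5513 of all 42125 kept probes.

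**Figure D5:**
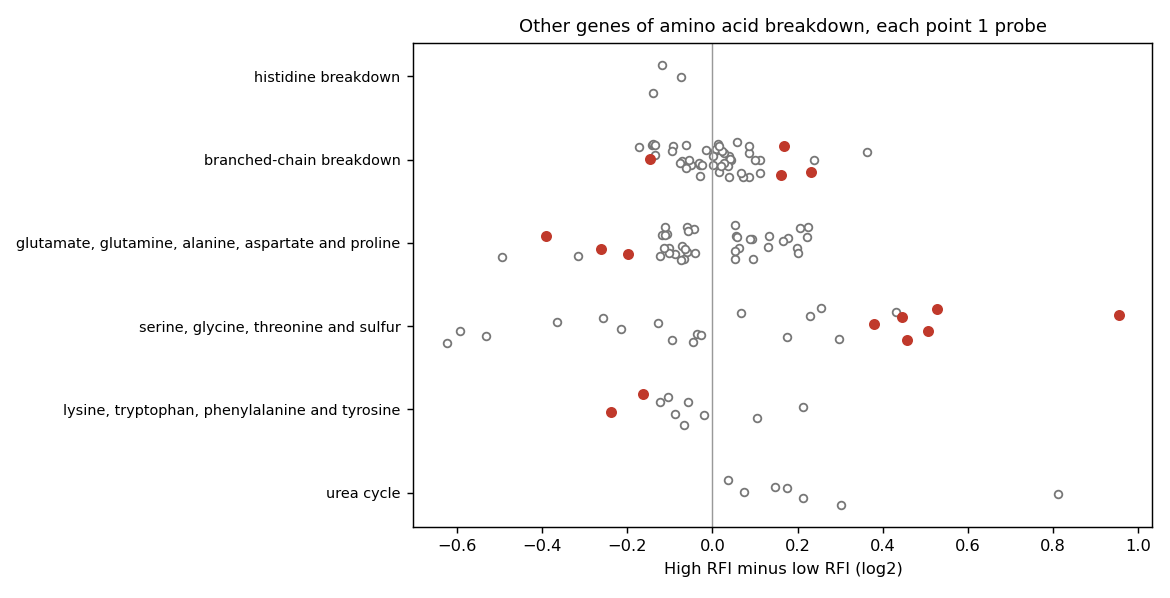
Line difference, high minus low RFI on the log2 scale (horizontal axis), of the 133 kept probes of the other amino acid breakdown genes in 6 lists (vertical axis). Filled red points were called at an adjusted p of 0.05, 15 in all; the 6 called points of the serine and glycine list are GATM.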

How the data were processed

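Longissimus muscle RNA of 48 pigs was hybridised on one-colour Agilent arrays. The authors deposited scanner files with spot intensities from Agilent Feature Extraction 10.7.3.1, which subtracted the background. Their deposited log2 table, for which the submitters' notes name R 2.10.0, holds log2 median signals of 34472 probes minus each array's median, and was used as an alternative. No genome build applies, and no coordinates are given.

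Control and outlier spots were left out here. From the log2 processed signal, the array's mean over the 42125 probes well above background on 12 or more arrays was subtracted. The 4 group means were fitted with limma 3.58.1 (R 4.3.3) and contrasted by line and by diet, with Benjamini-Hochberg adjustment over all these probes and a threshold of 0.05. The fit was tested on simulated data. Each gene is shown at its kept probe with the highest mean level. The other breakdown genes are named where that probe was called, besides the 5 brightest uncalled. For UROC1 the 5 most similar symbols are named. The members, the lists and the tests were chosen with earlier results of these data known. RefSeq (Sscrofa11.1) gave the gene order, and its transcripts matched 21 of the 39 probes' accessions.

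The number of arrays limits the precision. Between 59.2% and 74.2% of probes were well above background, no spot was saturated, and arrays of a group correlated at 0.966 to 0.990. Median processed signals ran from 52.8 to 107.9. Each pig was on 1 array, and p-values measure the spread between these pigs. Alternatives covered scaling, background correction, filters, outlier spots, the deposited table, slide and scan day as blocks, line alone, slow fiber genes as a covariate and the mean over a gene's probes. Leaving out the brightest array, the marker counts under the alternatives and the genes next to UROC1 were added after seeing the data.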

Additional observations from a re-analysis of the deposited data

How the results depend on the processing

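No paired analysis was possible because the labels give every sample the same replicate number, and the numbers used here follow the accession order. The UROC1 line difference at its brightest probe stayed within 1 SD of its value of 1.84 under the 12 alternatives that use this probe, from 1.44 with normexp correction to 1.91 without the brightest array. The mean of its 4 kept probes, a different quantity, gave 1.14. The counts of 0 called probes, for the line over both diets, the line on LF, the diet and the interaction, stayed 0 under every alternative run. Of 237 single-gene values under alternatives 0 were called, and 2 changed sign, BCKDHA to 0.029 with the mean over its probes and GLUL to 0.016 after quantile normalization. The IVD call on HF fell to 0 called probes without the filter on dim probes and without the brightest array. Without that filter 60305 probes are tested, and the line gave 3874 calls over all probes instead of 6919, 9 in the wider set instead of 15 and 4 among marker genes instead of 12. With slide or scan day as a block, the wider set gave 26 called probes of 133, 17 higher and 9 lower. Of all 42125 kept probes, 8416 were called with slide as a block and 7542 with scan day. The other line counts over all probes lay within 1.5 times. Signal over background limits O9852 of UROC1, well above background on 26 of 48 arrays.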
